A study of Mus musculus with 6 samples.

Results

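The genes described here are 9 complement genes: the anaphylatoxin receptors C3ar1, C5ar1 and C5ar2, the soluble components C3 and Cfp, and the membrane regulators Cd55, Cd46, Cd59a and Cr1l. They were taken by symbol, 9 of the 47643 genes of the table, and all 9 passed the filter on low counts. The study made 6 RNA libraries from skin mast cells of mice that carried Cdh5CreERT2, a Cre recombinase that tamoxifen activates in cells expressing the endothelial gene Cdh5, and that received 4OHT, its active form, at E7.5. The 3 embryonic libraries came from E16.5 skin, were sorted as CD45+ F4/80- CD64- ckit+ ST2+, and carry the submitters' description of a yolk sac hemogenic endothelium origin. The 3 adult libraries, described as definitive, were sorted as CD45+ F4/80- CD64- ckit+ Fcer1+, and adult skin had its epidermis removed. Both groups thus share the allele and the 4OHT time, while age, origin as described, the final marker of the gate and removal of the epidermis changed together, so that their parts cannot be told apart. It is not stated whether the lineage label was part of the gate or whether replicates were separate animals, and p-values below reflect the spread between these libraries alone, some or all of which may be technical.

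Complement is a cascade of plasma and tissue proteins in which C3 and C5 are cleaved. The small fragments C3a and C5a, the anaphylatoxins, act on G protein-coupled receptors of mast cells and other myeloid cells and can trigger mediator release and migration. The large fragment C3b marks surfaces, and host cells carry membrane regulators that dismantle the enzymes built on it or block the pore at the end of the cascade.

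The libraries held 34122162 to 49813523 counts in genes. Levels are CPM (counts per 1000000 counts of the TMM-scaled library), p-values are adjusted over all 15111 genes tested, and log2 fold changes are embryonic minus adult, so that negative values are higher in the adult. All 13 genes of a mast cell list were detected in each library, with a summed level of 125217 to 136649 CPM in embryonic libraries and 64448 to 68519 CPM in adult ones. This sum was led by Hdc (35780 to 43597 and 15467 to 18429 CPM), and single genes went both ways. The test gave 6 of them more in embryonic cells and 5 more in adult cells, and 2, Kit and Fcer1g, did not pass. Those 5 included Fcer1a (4.39 to 7.32 and 552 to 906 CPM) and Mcpt4 (1032 to 1250 and 7384 to 8177 CPM). Markers of other skin cells were present in both groups. Fibroblast genes summed to 552 to 683 CPM in embryonic libraries and 91.4 to 504 CPM in adult ones, keratinocyte genes to 56.2 to 525 and 29.2 to 53.8 CPM, macrophage genes to 6.05 to 13.4 and 98.5 to 204 CPM, and dendritic and Langerhans cell genes to 44.7 to 66.4 and 820 to 2536 CPM. The most abundant genes of these lists were Col3a1 (247 to 340 and 25.2 to 137 CPM), Krt1 (19.0 to 243 and 0.323 to 0.462 CPM), Lyz2 (0.0849 to 0.688 and 62.5 to 168 CPM) and Cd74 (28.1 to 54.9 and 488 to 1428 CPM). They do not stand for every gene of their lists. Dcn alone of the fibroblast list passed the test, with more in the adult (15.9 to 31.4 and 30.1 to 148 CPM). On the keratinocyte list 4 genes did not pass, among them Krt14 (6.33 to 22.2 and 8.52 to 26.9 CPM). On the macrophage list 8 passed, with more in the adult, and Csf1r did not (2.75 to 5.50 and 3.51 to 4.36 CPM). Erythroid genes, led by Hbb-bs, summed to 138 to 322 CPM in embryonic libraries and 3.29 to 10.4 CPM in adult ones, and endothelial genes, led by Pecam1, to 25.4 to 31.4 and 3.87 to 8.20 CPM. Neutrophil genes, led by Mpo, summed to at most 0.744 CPM and T cell genes, led by Cd3g, to at most 3.11 CPM in any library. In bulk RNA, fewer cells of a type and less RNA per cell cannot be told apart.

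Adult cells carried more C3a receptor and more membrane regulator transcript, and embryonic cells carried C5ar2, which was nearly undetected in the adult. Of the 9 genes, 6 were higher in adult cells (C3ar1, C3, Cd55, Cd46, Cd59a and Cr1l), 2 were higher in embryonic cells (C5ar2 and Cfp), and C5ar1 did not pass the test. Across all tested genes 63.0% were called, 31.7% higher in adult and 31.2% higher in embryonic cells, so a call by itself is common in this comparison. The median log2 fold change of the 9 genes was -1.69, against -0.02 for all tested genes. Libraries of the groups did not overlap for 8 of the 9 genes, against 70.0% of all tested genes.

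**Figure D1:**
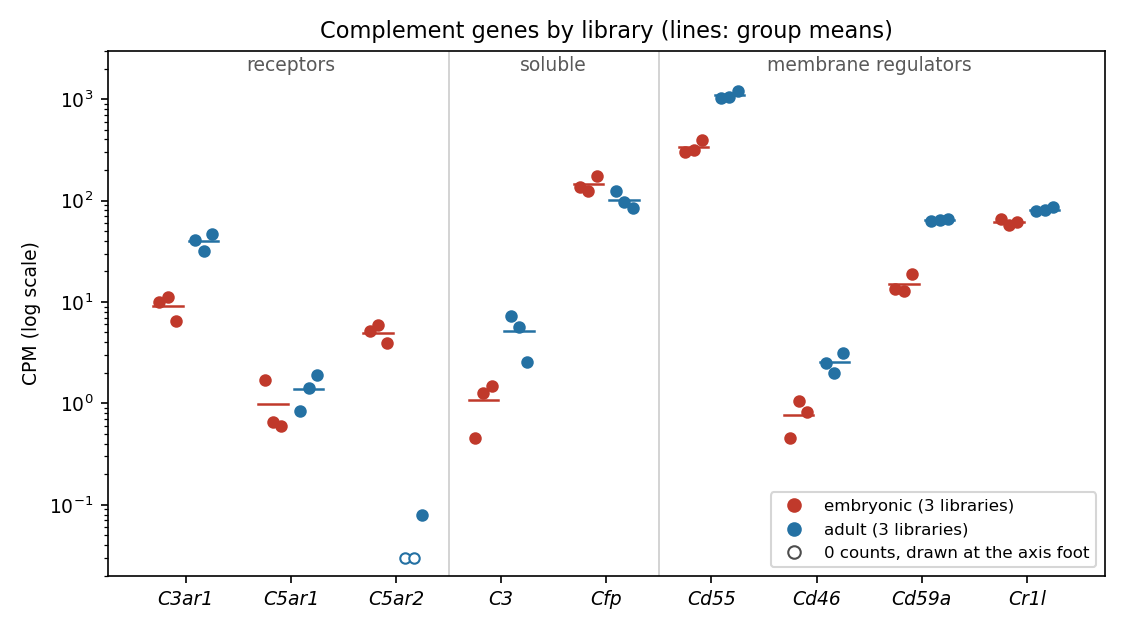
CPM (log axis) of the 9 complement genes by library, red for the 3 embryonic and blue for the 3 adult ones, with a line at each group mean and open points for libraries with 0 counts. C3ar1, Cd55 and Cd59a lie higher in every adult library, C5ar2 lies at 3.90 to 5.89 CPM in embryonic libraries and has 0, 0 and 3 counts in adult libraries, and C5ar1 overlaps between the groups.

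C3ar1 encodes the receptor for C3a. It was at 10.0, 11.1 and 6.48 CPM in embryonic libraries 1, 2 and 3 and at 40.6, 31.5 and 47.0 CPM in adult libraries 1, 2 and 3. Every adult library was above every embryonic one, and the group means were 9.21 ± 2.42 and 39.7 ± 7.77 CPM (SD, n = 3). The gene was 4.32-fold higher in adult cells (log2 fold change -2.11 ± 0.22 SE, adjusted p = 3.81e-05). C3ar1 is also known from macrophages. The adult library with the lowest macrophage sum, replicate 3 at 98.5 CPM, had the highest C3ar1 level. This is 1 library, and what macrophages contribute to C3ar1 transcripts was not tested. Over 15 alternative settings the difference ranged from 3.41-fold to 4.79-fold, and it was 3.41-fold without adult replicate 3 and embryonic replicate 3 together.

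C5ar1 encodes the main signalling receptor for C5a. Its level was low, at 1.70, 0.651 and 0.605 CPM in embryonic libraries and 0.844, 1.43 and 1.92 CPM in adult ones, or 23 to 79 counts per library. The groups overlapped, since embryonic replicate 1 was above adult replicates 1 and 2. The log2 fold change was -0.50 (95% interval -1.67 to 0.68, adjusted p = 0.432), an interval that includes 0.

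C5ar2 encodes a further C5a receptor that does not couple to G proteins and is known to bind beta-arrestins and to modulate C5ar1. Embryonic libraries held 241, 208 and 187 counts (5.17, 5.89 and 3.90 CPM) and adult libraries 0, 0 and 3 counts. All 3 adult counts were in replicate 3, where 3 counts correspond to 0.0789 CPM. The ratio of summed counts was 214 (95% exact binomial interval 72.9 to 1041, counting error only), higher in embryonic cells. The fitted test gave an adjusted p of 1.46e-05, and its log2 fold change of 7.57 became 6.95 without adult replicate 1 and 10.80 without adult replicate 3, which holds the adult counts. C5ar2 passed the filter through the embryonic group alone, the only one of the 9 genes to do so, so a difference in this direction was a condition of its entry.

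The receptor genes were then compared with each other per exon length, as CPM per kb of exon. C3ar1 made up 52.4%, 57.5% and 53.1% of the summed receptor level in embryonic libraries and 96.6%, 92.9% and 93.4% in adult libraries. The share of C5ar2 was 32.7%, 36.8% and 38.6% in embryonic libraries and at most 0.190% in adult libraries. C5ar1 held 5.64% to 14.9% and 3.37% to 7.06%, ranges that overlap. In every embryonic library C5ar2 was above C5ar1 per length, at 1.09 to 1.65 against 0.235 to 0.660 CPM per kb. In every adult library this order was the other way, with C5ar1 at 0.328 to 0.747 CPM per kb and C5ar2 at 0 to 0.0222 CPM per kb. These shares describe the libraries and were not tested.

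**Figure D2:**
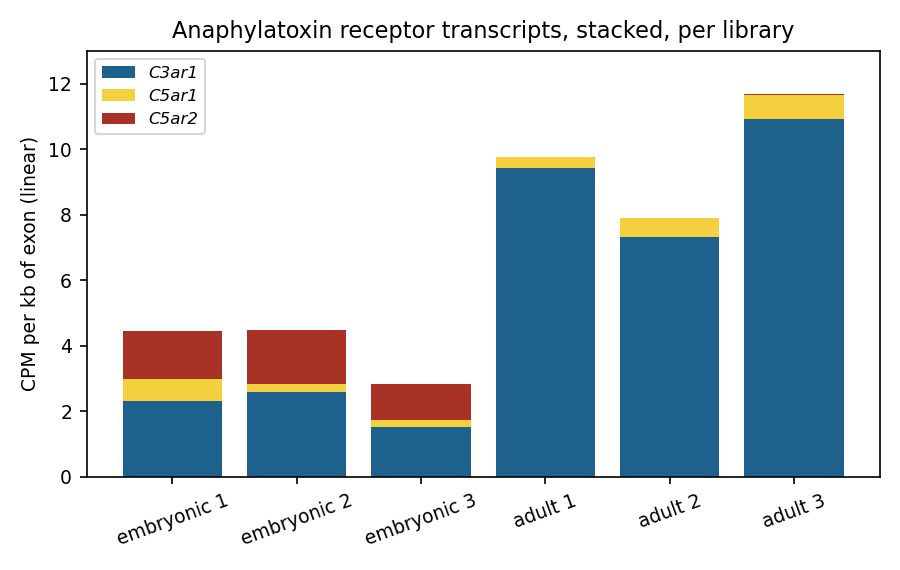
Stacked levels of C3ar1 (blue), C5ar1 (yellow) and C5ar2 (red) in each library, in CPM per kb of exon on a linear axis from 0. C5ar2 forms 32.7% to 38.6% of the bar in embryonic libraries and at most 0.190% in adult libraries, where C3ar1 forms 92.9% to 96.6%.

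C5ar1 (ENSMUSG00000049130.5) and C5ar2 (ENSMUSG00000074361.9) are neighbours on the minus strand of chromosome 7 in GRCm38, at chr7:16246743-16259540 and chr7:16234585-16244154, with 2588 bases and 0 annotated genes between them. C3ar1 (ENSMUSG00000040552.8) lies at chr6:122847138-122856161. No stretch of 50 bases in C3ar1 or C5ar1 transcripts recurs in transcripts of other genes, and 4.39% of those of C5ar2 do.

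The 250 bases before the start site are shown for the 4 called genes with the smallest adjusted p, 3 of them higher in adult cells (C3ar1, Cd55, Cd59a) and 1 in embryonic cells (C5ar2). They are from RefSeq on GRCm38.p6, 5′ to 3′ on the strand of the gene, at chr6:122856158-122856407 (minus) for C3ar1, chr7:16244155-16244404 (minus) for C5ar2, chr1:130462745-130462994 (minus) for Cd55 and chr2:104095551-104095800 (plus) for Cd59a. Capitals mark matches, on either strand, to GATAA (GATA factors), TGTGGT (RUNX factors), AGGAAG (ETS factors), CACGTG or CATGTG (E-boxes) and TTCNNNGAA (STAT factors), and no matches overlap.
C3ar1: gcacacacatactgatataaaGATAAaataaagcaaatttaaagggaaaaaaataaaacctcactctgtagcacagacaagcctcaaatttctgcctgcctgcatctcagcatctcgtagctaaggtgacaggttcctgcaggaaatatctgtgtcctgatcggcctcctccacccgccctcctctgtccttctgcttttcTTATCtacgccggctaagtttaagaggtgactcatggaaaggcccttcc
C5ar2: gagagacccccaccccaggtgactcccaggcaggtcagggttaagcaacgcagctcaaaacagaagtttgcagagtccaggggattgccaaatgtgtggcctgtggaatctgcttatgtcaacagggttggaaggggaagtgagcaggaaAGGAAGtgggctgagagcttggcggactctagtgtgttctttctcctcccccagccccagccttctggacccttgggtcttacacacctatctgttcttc
Cd55: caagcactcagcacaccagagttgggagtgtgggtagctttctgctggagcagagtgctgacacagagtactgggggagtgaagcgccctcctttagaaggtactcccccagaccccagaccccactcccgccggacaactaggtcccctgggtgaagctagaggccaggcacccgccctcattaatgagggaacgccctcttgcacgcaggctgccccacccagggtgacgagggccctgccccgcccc
Cd59a: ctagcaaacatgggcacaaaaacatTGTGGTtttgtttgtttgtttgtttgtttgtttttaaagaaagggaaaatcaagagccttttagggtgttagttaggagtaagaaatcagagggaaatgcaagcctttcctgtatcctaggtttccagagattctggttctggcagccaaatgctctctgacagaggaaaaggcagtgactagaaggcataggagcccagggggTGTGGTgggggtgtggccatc
C3ar1 held GATAA at 2 places, beginning 229 and 49 bases before the start, and 22.6% of 32851 RefSeq promoter windows of this length hold it. C5ar2 held AGGAAG once (29.5% of windows), Cd59a held TGTGGT at 2 places (14.0% of windows), and Cd55 held none of the 6 patterns. The CACGTG pattern (6.02% of windows), the CATGTG pattern (12.3%) and the STAT pattern (7.02%) had 0 matches in the windows of the 9 genes. Among the other 5 genes, C5ar1 held TGTGGT once and AGGAAG at 3 places and Cd46 held AGGAAG once, whereas the windows of C3, Cfp and Cr1l held none. The C5ar1 window precedes a RefSeq start 202 bases inside the gene as the deposited table has it. A match describes the letters of the window only.

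C3, the central component of the cascade, was low in both groups and higher in adult cells. It was at 0.451, 1.27 and 1.48 CPM in embryonic libraries and 7.19, 5.65 and 2.55 CPM in adult ones. The groups did not overlap, but adult replicate 3 was well below the other adult libraries. The gene was 4.81-fold higher in adult cells (log2 fold change -2.27 ± 0.51 SE, adjusted p = 0.00388). Fibroblast, macrophage, and dendritic and Langerhans cell sums were also lowest in adult replicate 3 among adult libraries (91.4, 98.5 and 820 CPM, against at least 443, 176 and 2198 CPM), and their part in the level of C3 was not tested. The fold was 7.59 without adult replicate 3 and embryonic replicate 3 together.

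Cfp encodes properdin, which stabilises the C3-cleaving enzyme of the alternative pathway. It was among the more abundant genes described here, at 136, 124 and 174 CPM in embryonic libraries and 124, 97.7 and 84.8 CPM in adult ones. The lowest embryonic library (123.9 CPM) and the highest adult library (123.7 CPM) nearly met. Properdin transcript was 1.42-fold higher in embryonic cells (log2 fold change 0.50 ± 0.17 SE, adjusted p = 0.0261). The call was lost without embryonic replicate 3 (adjusted p = 0.0576), without adult replicate 2 (0.0822) and without adult replicate 3 (0.0764). It was also lost without embryonic replicate 3 and adult replicate 3 together (1.17-fold, 0.165), and the adjusted p ranged from 5.55e-05 to 0.165 over 15 alternatives. Cfp (ENSMUSG00000001128.7) lies at chrX:20925454-20931555 and C3 (ENSMUSG00000024164.15) at chr17:57203970-57228136.

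All 4 membrane regulators were higher in adult cells, by 1.32-fold to 4.26-fold, without overlap between the groups. Over all tested genes, 31.7% were higher in adult cells and libraries of the groups did not overlap for 70.0%. Cd55 encodes decay-accelerating factor, which takes apart the C3- and C5-cleaving enzymes. It was at 301, 314 and 400 CPM in embryonic libraries and at 1024, 1057 and 1198 CPM in adult libraries. It had the highest CPM of the 9 genes in every library, and every adult library was above every embryonic one. The gene was 3.23-fold higher in adult cells (log2 fold change -1.69 ± 0.13 SE, adjusted p = 2.88e-06), and 3.02-fold to 3.44-fold over the alternatives.

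Cd59a encodes a membrane-anchored inhibitor of the terminal pore. It was at 13.5, 12.8 and 19.0 CPM in embryonic libraries and at 63.0, 64.4 and 65.7 CPM in adult libraries. Adult libraries lay close together, with an SD of 1.32 CPM. The gene was 4.26-fold higher in adult cells (log2 fold change -2.09 ± 0.15 SE, adjusted p = 2.07e-06).

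Cr1l encodes Crry, a rodent regulator that takes apart C3-cleaving enzymes and serves as a cofactor for the breakdown of C3b. It was at 65.3, 57.8 and 62.1 CPM in embryonic libraries and 78.4, 79.9 and 86.0 CPM in adult ones. This was the smallest called change among the 9 genes, 1.32-fold higher in adult cells (log2 fold change -0.40 ± 0.10 SE, adjusted p = 0.00467), although the libraries did not overlap. Cd46, membrane cofactor protein, which in mice is known mainly from the testis, was near the lower end of detection. It was at 0.451, 1.05 and 0.813 CPM in embryonic libraries and 2.49, 1.98 and 3.13 CPM in adult ones, or 21 to 39 and 86 to 124 counts. The difference was 3.30-fold (log2 fold change -1.72 ± 0.42 SE, adjusted p = 0.00517). Of the exon bases of Cd46, 14.2% are shared with other annotated genes, among them A330023F24Rik on the opposite strand, and reads there were left out as ambiguous.

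**Figure D3:**
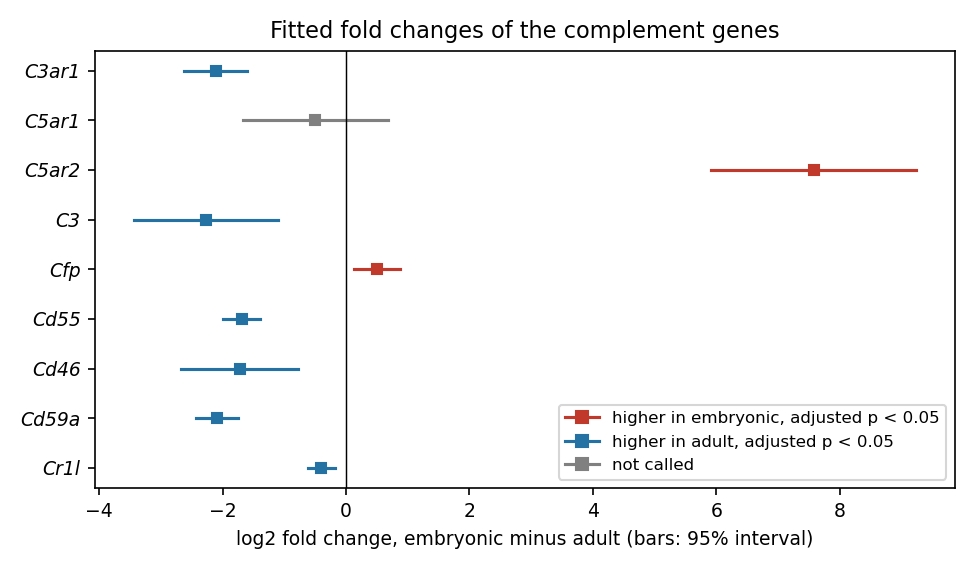
Log2 fold change (embryonic minus adult) of the 9 genes with 95% intervals from the edgeR fit. Intervals of C3ar1, C3 and the 4 membrane regulators lie below 0, those of C5ar2 (5.92 to 9.23) and Cfp (0.12 to 0.88) lie above 0, and that of C5ar1 (-1.67 to 0.68) spans it.

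Cd55 was the main regulator transcript in both groups. Per exon length, it made up 81.7% to 83.5% of the summed regulator level in embryonic and 83.2% to 84.6% in adult libraries, ranges that overlap. The share of Cr1l was 6.07% to 8.32% in embryonic and 2.85% to 2.98% in adult libraries, and that of Cd59a 9.10% to 10.6% and 12.4% to 13.7%. Cd46 was at most 0.178% in any library. The summed level was 75.9, 77.5 and 98.9 CPM per kb in embryonic and 254, 261 and 292 CPM per kb in adult libraries. No test was made of these sums and shares.

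Ordered by level per exon length, Cfp (71.4 to 100.4 CPM per kb) and Cd55 (62.0 to 82.3 CPM per kb) led in embryonic cells and overlapped each other, followed by Cd59a (8.34 ± 1.87 CPM per kb, SD), Cr1l (5.97 ± 0.36), C3ar1 (2.14 ± 0.56) and C5ar2 (1.40 ± 0.28), the last pair overlapping. C5ar1, C3 and Cd46 came last, at 0.383, 0.208 and 0.101 CPM per kb, each overlapping its neighbour. In adult cells Cd55 stood alone at the top (225 ± 19.1), followed by Cfp (58.8 ± 11.4), Cd59a (35.6 ± 0.73), C3ar1 (9.22 ± 1.80) and Cr1l (7.87 ± 0.39), the last pair overlapping. C3, C5ar1 and Cd46 followed at 0.998, 0.544 and 0.333 CPM per kb, each overlapping its neighbour, and C5ar2 was last. Cd55 was above 95.7% of tested genes in embryonic and 98.8% in adult cells.

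The genes whose pattern over the 6 libraries was most like that of Cd55 and Cfp, the 2 of the 9 genes with the highest level per length, were found by the root mean square difference of mean-centred log2 CPM among 6543 genes of at least 20 CPM. For Cd55 these were Suco (0.043), Ctsf (0.059) and Ercc6l2 (0.060), and for Cfp they were Elovl1 (0.092), Slc31a2 (0.095) and Rhoh (0.104). With 6 libraries in 2 groups, such likeness mainly reflects the group difference and is a description.

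Several membrane regulators have close copies nearby. Cd55 (ENSMUSG00000026399.12, chr1:130439027-130462744) lies 16.0 kb from Cd55b, with 1 annotated gene between, and Cd59a (ENSMUSG00000032679.12, chr2:104095801-104115354) lies 4.61 kb from Cd59b. Cd46 (ENSMUSG00000016493.13, chr1:195036826-195092249), Cr1l (ENSMUSG00000016481.15, chr1:195097382-195131586) and Cr2 follow each other within gaps of 5.13 and 5.22 kb. Cd55b ranged from 0.0417 to 0.0849 CPM in the embryo and from 0.473 to 0.864 CPM in the adult (log2 fold change -3.53, adjusted p = 0.000752), and Cd59b at 0.537 to 0.688 and 0.201 to 0.484 CPM (adjusted p = 0.218). Cd55b passed the filter through the adult group alone and Cd59b through the embryonic group alone. A difference in those directions was thus a condition of their entry. Cr2, complement receptor 2 of B cells and follicular dendritic cells, had 3 embryonic and 18 adult counts and was not tested. Of 50-base stretches, 9.12% of those of Cd55 and 3.87% of those of Cd59a recur in transcripts of other genes, against 30.4% for Cd55b and 20.1% for Cd59b. Reads that align to several places were not counted, so levels of the copies are uncertain, more so for Cd55b and Cd59b.

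Most of the other complement genes were absent or low, and those that passed the test were mainly higher in adult cells. Of 48 further complement genes 24 were tested. Of these, 14 were higher in adult and 3 in embryonic libraries, and 7 were not called. Over all tested genes, 63.0% were called, 31.7% higher in adult and 31.2% in embryonic cells. The median log2 fold change of the 24 genes was -2.83, against -0.02 for all tested genes. Of the 24 genes, 10 passed the filter through the adult group alone and 2 through the embryonic group alone. Their counts and median were thus shaped by the filter. Of the 24 genes not tested, 7 had 0 counts in every library.

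In the classical and lectin pathway 8 of 19 listed genes were tested. C1qa, C1qb, C1qc, C4a and C4b passed the filter through the adult group alone, so that a higher adult level was a condition of their entry. Of the genes that passed through both groups, C2 and Colec11 were higher in adult cells and Colec12 was not called, where 31.7% of all tested genes were higher in the adult. Colec11, a soluble lectin that starts the lectin pathway, was at 0.601, 0.368 and 0.375 CPM in embryonic libraries and 104, 111 and 94.2 CPM in adult ones, a log2 fold change of -7.82 ± 0.19 SE (adjusted p = 3.63e-09). C2, a protease of the C3-cleaving enzyme, was at 3.54, 3.79 and 3.23 CPM in the embryo and 48.6, 56.2 and 55.5 CPM in the adult (15.2-fold, adjusted p = 1.79e-08). Both stood clear of the spread between libraries, and adult replicate 3 was close to the other adult libraries. C4b, the partner of C2, was instead low in adult replicate 3. It had 1, 3 and 0 embryonic counts and 525, 525 and 106 adult counts (10.6, 12.1 and 2.79 CPM, adjusted p = 9.2e-05). Its fitted fold moved from 249 to 619 without embryonic replicate 2 and to 158 without embryonic replicate 3, and it shares close sequence with C4a. The C1q chain genes C1qa, C1qb and C1qc, named after their values were seen and also on the macrophage list, were at most 0.313 CPM in embryonic libraries and 0.316 to 2.91 CPM in adult ones, lowest in adult replicate 3. What macrophages contribute to C1q transcripts, and what other cells contribute to those of C2, Colec11 and C4b, was not tested.

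In the alternative and terminal pathways few genes were detected. Cfb, factor B, had 3 embryonic and 99 adult counts, an adult to embryonic ratio of 32.7 (95% exact binomial interval 10.9 to 161), and Cfd, factor D, had 0 and 12 counts and was not tested. Cfb passed the filter through the adult group alone, so that a higher adult level was a condition of its entry. Hc, which encodes C5, the source of C5a, was at 11.2, 17.1 and 18.6 CPM in embryonic libraries and 2.17 ± 0.58 CPM (SD, n = 3) in adult ones, without overlap. It was 7.19-fold higher in embryonic cells (log2 fold change 2.85 ± 0.27 SE, adjusted p = 1.27e-05), opposite to C3 and C2. C8g was at 1.96 to 2.65 CPM in all libraries (adjusted p = 0.911), and the other 5 of 7 terminal pathway genes were not tested.

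Fluid-phase regulators were mostly low. Serping1, the C1 inhibitor, was at 0.537 to 0.897 CPM in embryonic libraries and 14.5, 14.2 and 2.47 CPM in adult ones (15.5-fold, adjusted p = 0.0019), with adult replicate 3 again low. Without embryonic replicate 3 and adult replicate 3 together its fold was 25.9. Clu, clusterin, ranged from 0.580 to 5.57 CPM in embryonic libraries and 0.999 to 7.21 CPM in adult ones and did not pass the test (adjusted p = 0.45), but was called as higher in the adult without embryonic replicate 3 and adult replicate 3 together (7.12-fold, adjusted p = 1.77e-05).

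Among receptors for C3 fragments and C1q, 7 genes were tested, of which 3 had the higher level in adult cells, 2 in embryonic cells, and 2 were not called. Over all tested genes 63.0% were called, 31.7% higher in adult and 31.2% in embryonic cells, so these counts do not set the list apart. Cd93, a membrane glycoprotein first described as a C1q receptor, was at 5.58, 5.55 and 8.72 CPM in embryonic libraries and 163, 138 and 220 CPM in adult ones (26.2-fold, adjusted p = 1.08e-06). Lrp1, an endocytic receptor, was 3.33-fold higher (adjusted p = 0.000112), and Itgax, the alpha chain of complement receptor 4 and a dendritic cell marker, had 5 embryonic counts, all in replicate 3, and 311 adult counts. The fitted fold of Itgax was 57.6 (adjusted p = 0.00022), 38.0 without embryonic replicate 1 and 786 without embryonic replicate 3, when embryonic counts are 0 and the value depends on the prior count. Itgax, 1 of the 3 genes counted as higher in adult cells, passed the filter through the adult group alone. A higher adult level was thus a condition of its entry. Calr, calreticulin, a chaperone that can bind C1q at the surface, was 3.04-fold higher in embryonic cells at 910 to 1113 against 301 to 350 CPM (adjusted p = 1.8e-06), and C1qbp, a mostly mitochondrial protein, 2.04-fold higher (adjusted p = 1.53e-05). Vsig4, a macrophage receptor for C3b, had 0 embryonic counts and 1 adult count.

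**Figure D4:**
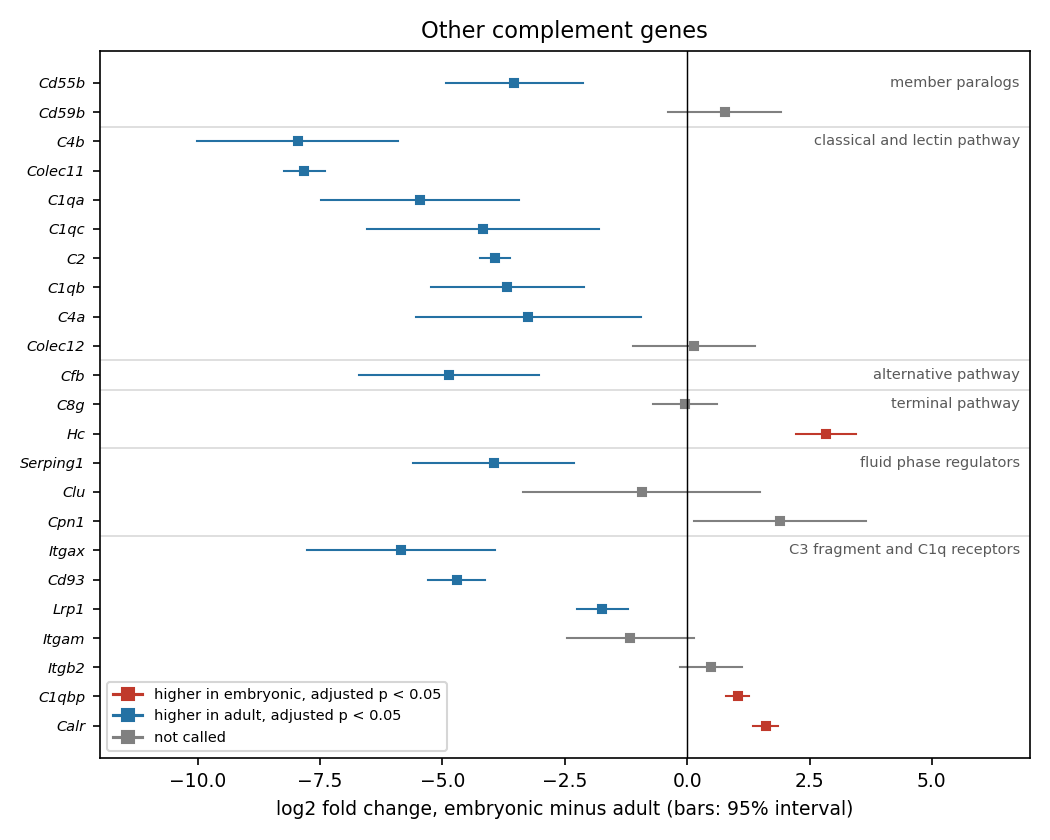
Log2 fold change (embryonic minus adult) with 95% intervals of tested complement genes other than the 9, grouped by list, blue for genes higher in adult cells, red for genes higher in embryonic cells and grey for genes not called. Colec11 and C2 have narrow intervals far below 0, and Hc, C1qbp and Calr lie above 0.

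Signalling genes that anaphylatoxin receptors use went both ways. All 19 genes of the list were tested. Adult cells had the higher level of 11 and embryonic cells of 5, where 31.7% and 31.2% of all tested genes were called in these directions. The median log2 fold change was -0.35, against -0.02 for all tested genes. Gnai1 and Gnai2, inhibitory G protein alpha subunits through which C3ar1 and C5ar1 signal, had the highest levels per length of the list as means over the 6 libraries. Gnai2 did not pass the test (785 to 866 and 798 to 894 CPM, adjusted p = 0.738), and Gnai1 was 1.98-fold higher in embryonic cells (adjusted p = 0.000145). Gnai3, a further inhibitory subunit named after its values were seen, was at 465, 442 and 418 CPM in embryonic libraries and 828, 907 and 942 CPM in adult ones, 2.02-fold higher in the adult (adjusted p = 1.36e-05). Per length it was above Gnai2 in every adult library. Plcb2, a phospholipase C that G proteins activate, was at 227, 317 and 280 CPM in embryonic libraries and 41.5, 39.9 and 40.5 CPM in adult ones, 6.76-fold higher in embryonic cells (adjusted p = 1.26e-07). Pik3r6 and Pik3r5, the regulatory subunits of PI3K gamma, were higher in adult cells, Pik3r6 at 81.9 to 109 against 411 to 495 CPM (4.66-fold, adjusted p = 7.13e-07) and Pik3r5 at 0.566 to 0.730 against 6.69 to 16.3 CPM (17.2-fold, adjusted p = 6.78e-06). Grk3, a receptor kinase, was 2.51-fold higher in adult cells (adjusted p = 5.09e-06), and Arrb2, a beta-arrestin, 1.67-fold higher in embryonic cells (adjusted p = 0.000244). These genes serve many receptors besides those of complement.

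**Figure D5:**
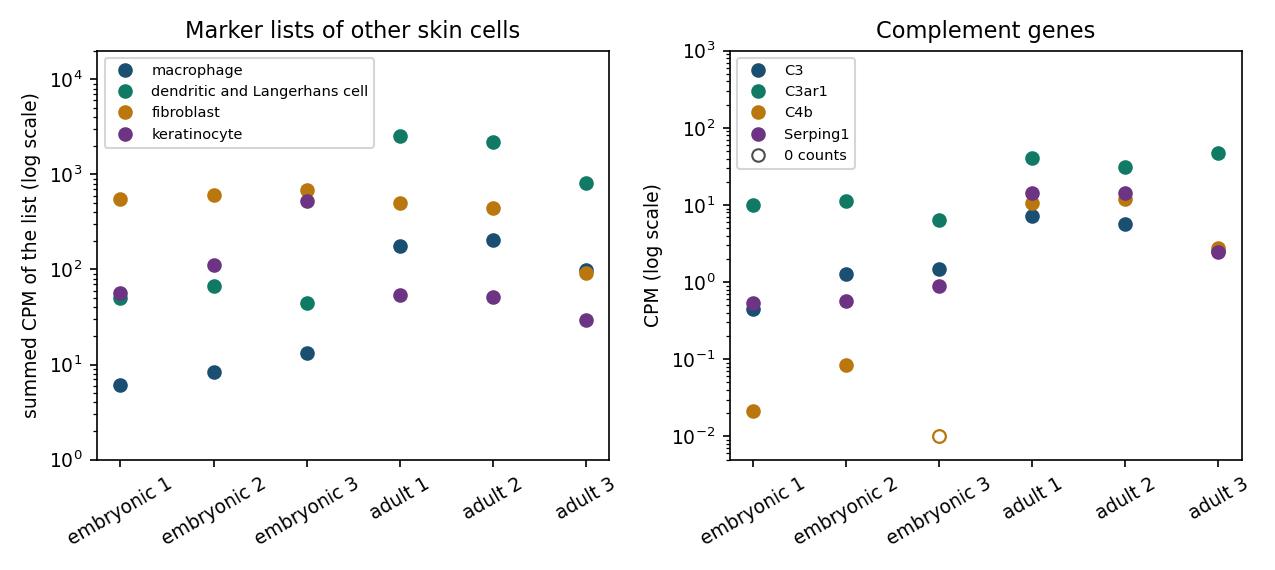
Left, summed CPM (log axis) of marker lists of other skin cells in each library, and right, CPM (log axis) of C3, C3ar1, C4b and Serping1, with an open point for 0 counts. Adult replicate 3 is the lowest adult library for all 4 marker sums and for C3, C4b and Serping1, and the highest for C3ar1 (47.0 CPM). What other cells contribute to the genes on the right was not tested.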

How the data were processed

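RNA of 6 libraries (3 embryonic, 3 adult) was measured. The authors deposited raw read counts for each gene. They were made by featureCounts 1.5.0-p1 from exons of GENCODE M9, ignoring strand and marked duplicates, per the file headers. Those options leave out reads that align to several places or overlap several genes, so transcripts of close copies are undercounted. Per the submitters' processing notes, STAR and edgeR were used with GRCm38 (mm10). Full-length cDNA was amplified and tagmented (SMART-Seq v4, Nextera XT), per the labels' protocols, without molecular identifiers, so counting intervals cover counting error only. The exon length in the same table was used as deposited.

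Symbols matched 47224 of 47643 gene IDs (419 did not). All sample columns were used (0 belong to other samples). The main test was that of edgeR 4.0.16, run in R 4.3.3 (TMM, filterByExpr with minimum count 10, robust glmQLFit, glmQLFTest, Benjamini-Hochberg, threshold 0.05). Standard errors were derived from the fold change and the F statistic. Replicates differed by more than counting noise (chi-square per degree of freedom 38.5 to 98.8). A floor of 3 counts equals 0.0603 to 0.0849 CPM. The same test was run on simulated data. The genes and lists were chosen with earlier results of these data known. In each list, up to 3 called genes per direction with the smallest adjusted p and the 2 most abundant per length were named, and the most abundant gene of each list of other cells. The values of 1 gene named by this rule are not reported here. Alternatives were RLE and upper quartile scaling, other filters, DESeq2 1.42.0, limma-voom (limma 3.58.1), no robust estimation, a replicate block, a stricter threshold and leaving out libraries.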

Additional observations from a re-analysis of the deposited data

How the results depend on the processing

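Over 15 alternative settings, C3ar1, C5ar2, C3, Cd55, Cd46, Cd59a and Cr1l kept their direction and their call. The count of the 9 genes higher in adult cells was 6 in every setting run. The count higher in embryonic cells was 1 to 2 when single replicates were left out, and 1 at an adjusted p under 0.01 and without embryonic replicate 3 and adult replicate 3 together, an alternative chosen after the data were seen. C5ar2 alone then remained, since Cfp was no longer called. The log2 fold change of C5ar1 reversed to 0.066 (adjusted p = 0.927) without those libraries together, and no setting called it. Of the other complement genes, 6 in place of 3 were higher in embryonic cells when all genes with at least 1 count were tested, and 8 in place of 14 were higher in adult cells when at least 1 CPM in 3 libraries was required, which leaves fewer genes tested. Scaling by upper quartiles moved the median over all genes from -0.02 to -0.04 on the log2 scale.

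Same-numbered libraries did not deviate together (correlations of -0.12, -0.08 and -0.13), and none correlated best with its own number. With the replicate number as a block, the calls were 4379 for embryonic and 4469 for adult cells over all genes, and the calls of the 9 genes were the same, 2 and 6. Depth limits C5ar1, Cd46, C3 and the adult level of C5ar2, which rest on at most 358 counts per library.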
